A study of Homo sapiens with 12 samples.

Results

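The subunits of the respiratory chain were examined in RNA sequencing libraries of human melanoma cells treated with etoposide or with etoposide and rapamycin. Members were taken by gene symbol from the table of counts, without use of their values, and numbered 73 of 58307 named rows. Of these, 60 are nuclear genes, with 36 subunits of complex I, 4 of complex II, 9 of complex III and 11 of complex IV (NDUFA4 counted in complex IV). The remaining 13 are the protein-coding genes of the mitochondrial DNA, with 7 subunits of complex I, 1 of complex III, 3 of complex IV and 2 of the ATP synthase, complex V.

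The study asked how rapamycin, which inhibits mTORC1 and induces autophagy, changes the transcriptome of cells exposed to etoposide, a topoisomerase II poison. The 12 libraries were poly(A)-enriched and formed 4 groups of 3: A375 with etoposide, A375 with etoposide + rapamycin, SK-MEL-28 with etoposide, and SK-MEL-28 with etoposide + rapamycin. Both lines are established melanoma cultures, A375 and SK-MEL-28 being widely used. Etoposide was present in all 4 groups, the libraries used here include no untreated cells, and the labels give no dose or exposure time.

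Library totals ran from 28189501 to 32499337 counts. The study's reporting summary describes the replicates as biological, while the labels name no culture for each library, and the p-values measure the spread between these libraries. Among the melanocyte lineage markers, SOX10 stood at 166 to 579 CPM (counts per 1000000 counts of a library, with TMM factors). S100B stood at 56.7 to 94.1 CPM in A375 and 79.8 to 106 CPM in SK-MEL-28. MITF stood at 12.1 to 20.9 CPM and 18 to 29.7 CPM. The 5 pigment cell markers PMEL, MLANA, TYR, TYRP1 and DCT summed to 2.68 to 4.81 CPM in the A375 libraries and to 5.39 to 7.01 CPM in those labelled SK-MEL-28, a line usually described as pigment cell-like. TYR was near 0 with and without rapamycin, at 0 to 0.196 CPM in A375 and 0 to 0.0653 CPM in SK-MEL-28. Across 20101 genes tested, 31.8% passed the test between the lines under etoposide. A difference of more than 1.5-fold was found for 12.5%, and of more than 2-fold for 6.64%. The names of the lines are therefore used below as labels, and the identity of the cells was not tested further.

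The respiratory chain passes electrons from NADH and succinate to oxygen and pumps protons across the inner mitochondrial membrane, and the ATP synthase uses that gradient to make ATP. Complexes I, III and IV are built from products of both genomes, whereas complex II is wholly nuclear. Mitochondrial genes are transcribed as long polycistronic RNAs from both strands and then cut apart, so their mature levels depend on shared synthesis and on separate processing and decay. Nuclear subunit genes have their own promoters, many of which are bound by NRF1, by ETS factors such as GABPA, and by YY1.

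Adjacent mitochondrial genes share bases, and the counts of those genes cannot be kept fully apart. The following stretches (GRCh38, plus strand) show where the reading frames of neighbouring genes overlap, with the shared bases in capitals. MT-ATP8 and MT-ATP6 share 46 bases at chrM:8527-8572 and MT-ND4L and MT-ND4 share 7 bases at chrM:10760-10766.
MT-ATP8 and MT-ATP6: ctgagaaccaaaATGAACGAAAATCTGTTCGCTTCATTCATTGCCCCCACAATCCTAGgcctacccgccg
MT-ND4L and MT-ND4: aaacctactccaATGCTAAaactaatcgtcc
Each capital stretch opens with the start codon of the downstream gene. In the table of counts, MT-ND4L and MT-ND4 were assigned to 1 assembled locus. The MT-ND4L row held 158949 to 267905 counts per library and the MT-ND4 row 6 or 7, so MT-ND4 was not tested and the MT-ND4L row is read below as the value of the pair. MT-ATP8, MT-ATP6 and MT-CO3 also shared 1 locus, and the ATP6 row took 32.8% to 45.9% of its counts, depending on the library.

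Levels of the 2 genomes were far apart. Mitochondrial members took 3.08% to 4.76% of a library's counts, against 0.481% to 0.581% for the 60 nuclear members together. Per kilobase of the canonical transcript, the 60 nuclear members had a median of 77.7 CPM over all libraries. Their lowest level was 4.91 CPM per kilobase for NDUFV3, an accessory subunit of the complex I flavoprotein, whose canonical transcript of 5725 bases is long for this group. The highest was 417.7 CPM per kilobase for COX4I1, the main isoform of a regulatory complex IV subunit.

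Within the complexes, the highest nuclear levels per kilobase were those of NDUFA13 for complex I (312.4), SDHC for complex II (124.0), UQCRH for complex III (409.7) and COX4I1 for complex IV. SDHA (34.7 CPM per kilobase), UQCRB (13.9) and COX7B (21.9) were the lowest of complexes II, III and IV. This order depends on the lengths used, as the canonical transcript of UQCRB has 8459 bases. Without division by length, group means were 107.2 to 136.9 CPM for UQCRB and 19.6 to 26.9 CPM for UQCR10 of the same complex. Among the mitochondrial members that were tested, MT-ND5 had the lowest level, 1002 CPM per kilobase, and MT-CO1, the catalytic subunit of complex IV, stood at 7226. Names that share a locus were summed over their joint length, which gave 4389 CPM per kilobase for MT-ND4L and MT-ND4 (1668 bases) and 5296 for MT-ATP8, MT-ATP6 and MT-CO3 (1625 bases). The nuclear and mitochondrial ranges did not overlap once the MT-ND4 row was set aside.

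In A375, mitochondrial transcripts were lower with rapamycin than without it. The 13 mitochondrial genes made up 3.93%, 4.08% and 4.25% of counts with etoposide and 3.32%, 3.26% and 3.08% with rapamycin added. The groups did not overlap and their means differed by -21.1%. The 60 nuclear genes made up 0.493%, 0.548% and 0.529% of counts with etoposide and 0.483%, 0.481% and 0.488% with rapamycin, a difference of the means of -7.51%. The mitochondrial to nuclear ratio was 7.98, 7.45 and 8.02 with etoposide and 6.88, 6.78 and 6.32 with rapamycin, without overlap. These are relative amounts, and in bulk RNA a change in the number of cells with such transcripts cannot be told apart from a change in the amount per cell.

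In SK-MEL-28, the mitochondrial share was 4.76%, 4.37% and 4.45% with etoposide and 4.23%, 4.31% and 4.24% with rapamycin. These groups also did not overlap, with a smaller difference of -5.98%. The nuclear share was 0.538%, 0.581% and 0.568% with etoposide and 0.512%, 0.558% and 0.517% with rapamycin, and here the groups overlapped. The ratio of 8.86, 7.52 and 7.83 with etoposide and of 8.26, 7.72 and 8.20 with rapamycin overlapped as well.

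**Figure D1:**
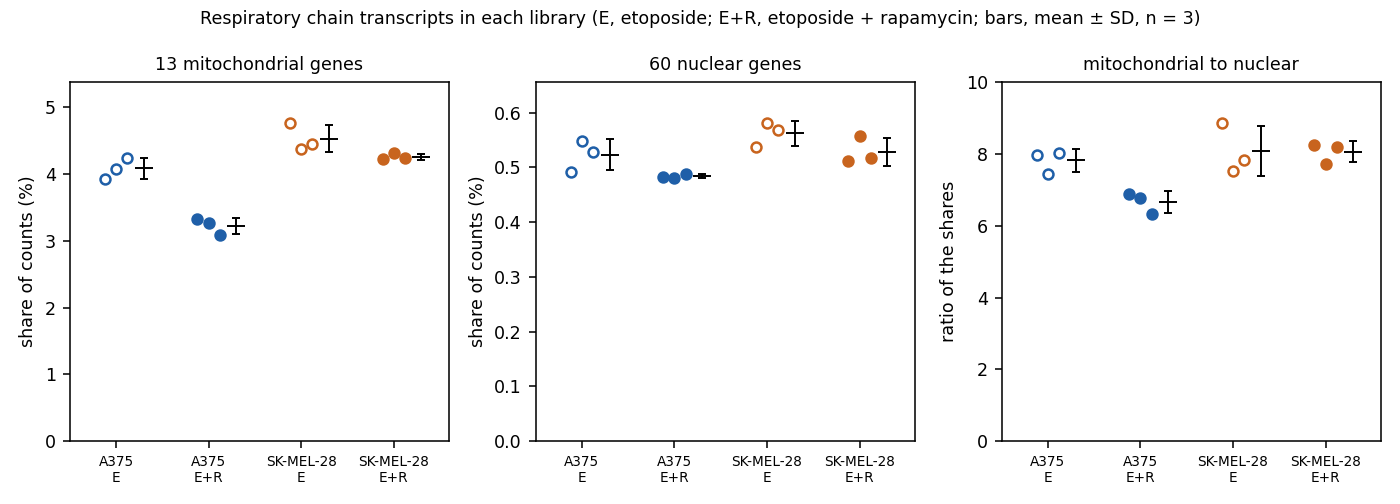
Share of all counts on the 13 mitochondrial and 60 nuclear members (percent) and the ratio of the shares, for each of the 12 libraries. Open points are etoposide, filled points etoposide + rapamycin, and bars mean ± SD (n = 3); the filled A375 points of the mitochondrial share (3.08% to 3.32%) lie below all other libraries.

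Gene by gene, all 12 mitochondrial members tested fell in A375 (quasi-likelihood F test in edgeR, with p adjusted by Benjamini-Hochberg over all genes and called under 0.05), where 28.1% of all genes tested passed and 13.8% fell. Their log2 fold changes lay between -0.43 and -0.23 with a median of -0.29, beside -0.01 over all 18844 genes tested. The rapamycin and etoposide libraries did not overlap for any of the 12, a pattern found for 42.6% of all genes, 21.9% in this direction. No member of either genome passed with a fold change over 1.5, the further limit used by the study, which 5.89% of all genes did.

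Complex IV has 3 mitochondrial subunits that form its catalytic core. MT-CO1 stood at 10820, 11090 and 11430 CPM with etoposide and at 9716, 9646 and 9015 CPM with rapamycin in A375, a log2 fold change of -0.23 ± 0.04 (SE; edgeR adjusted p = 0.00097). MT-CO2, which holds the copper site that accepts electrons from cytochrome c, was 3519, 3770 and 3964 CPM with etoposide and 3163, 3091 and 2978 CPM with rapamycin. Both genes were lower in every rapamycin library than in any etoposide library. MT-CO3 was 2174, 2234 and 2567 CPM with etoposide and 1961, 1934 and 1751 CPM with rapamycin (log2 -0.30 ± 0.06).

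MT-CYB, the cytochrome b of complex III, was 3133, 3176 and 3323 CPM with etoposide and 2727, 2717 and 2608 CPM with rapamycin in A375, a log2 fold change of -0.25 ± 0.04. The 6 complex I subunits tested, which form the proton-pumping membrane arm, fell by 0.25 to 0.36 on the log2 scale. MT-ND6 is the single protein-coding gene read from the other strand (chrM:14149-14673, minus strand). It was 577.4, 639.9 and 633.1 CPM with etoposide and 505.2, 500.4 and 547.8 CPM with rapamycin (log2 -0.25 ± 0.05), a change within the range of the genes of the plus strand. Whether reads were kept apart by strand is not known, so the MT-ND6 row may also hold reads of plus-strand RNA. The comparison of the strands therefore decides nothing. The MT-ND4L row fell by 0.36 on the log2 scale.

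The subunits MT-ATP8 and MT-ATP6 of the ATP synthase had log2 fold changes of -0.37 ± 0.06 and -0.43 ± 0.05 in A375. Their single values depend on how reads were shared out within the locus. Rows named for nuclear copies of mitochondrial DNA traded places between libraries: MTATP6P1 held 1108 to 1558 counts in the A375 etoposide libraries and 18490, 19038 and 1881 in those with rapamycin. MTATP8P1 moved in the other direction, from 35873 to 37574 counts to 10201, 9505 and 23881. With pseudogene counts added, the log2 fold change was -0.20 for MT-ATP6 (edgeR adjusted p = 0.0455) and -0.59 for MT-ATP8. With the 3 names of the locus summed it was -0.37 (edgeR adjusted p = 8e-05), which does not depend on the split between these names. With their pseudogene rows summed as well it was -0.385 (edgeR adjusted p = 7.2e-05).

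In SK-MEL-28, 4 of the 12 mitochondrial members tested fell and none rose, against 19.0% of all genes tested that passed, 10.1% lower and 8.83% higher. No member of either genome passed with a fold change over 1.5, as 4.99% of all genes did. The median of the 12 was -0.10, beside 0.01 over all 18897 genes, and was -0.04 without SK-MEL-28 etoposide replicate 1. MT-CO3 had the largest change, at 2822, 2684 and 2680 CPM with etoposide and 2055, 2228 and 1888 CPM with rapamycin (log2 -0.41 ± 0.05, edgeR adjusted p = 0.00012). MT-ND5, a proton-pumping subunit of complex I, was 2472, 2106 and 1990 CPM with etoposide and 1898, 1822 and 1836 CPM with rapamycin (log2 -0.25 ± 0.06, edgeR adjusted p = 0.0162). In both genes every rapamycin library lay below every etoposide library.

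MT-ND6 and MT-CYB also fell, with log2 fold changes of -0.23 ± 0.07 (edgeR adjusted p = 0.0400) and -0.14 ± 0.04 (edgeR adjusted p = 0.0230). These calls were close to the threshold. MT-ND5, MT-ND6 and MT-CYB were lost when genes with as little as 1 count in any library were tested. MT-ND5 was also lost without SK-MEL-28 etoposide + rapamycin replicate 2 or 3, MT-ND6 without SK-MEL-28 etoposide replicate 1 (log2 -0.12) or any one rapamycin library, and MT-CYB without SK-MEL-28 etoposide replicate 1 or 3 or rapamycin replicate 1 or 3 (log2 between -0.16 and -0.09). MT-CO3 kept its call whichever library was left out, but it belongs to the locus shared with the ATP synthase genes, whose sum had a log2 fold change of -0.15 (edgeR adjusted p = 0.0117).

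The 2 most abundant mitochondrial rows were not called in SK-MEL-28. MT-CO1 was 11910, 11300 and 11770 CPM with etoposide and 12400, 12230 and 12370 CPM with rapamycin, so every rapamycin library was above every etoposide library (log2 0.08 ± 0.03). It missed the threshold with an edgeR adjusted p of 0.0536, and passed under 6 of 12 alternatives (edgeR or DESeq2 adjusted p from 0.0195 to 0.286 over the 12). Those 6 were TMM factors without the mitochondrial chromosome, 10 counts in every library, the replicate block, halved counts, and both settings that add pseudogene counts. The MT-ND4L row was 8393, 7920 and 8131 CPM with etoposide and 7900, 8138 and 7998 CPM with rapamycin, and the groups overlapped.

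**Figure D2:**
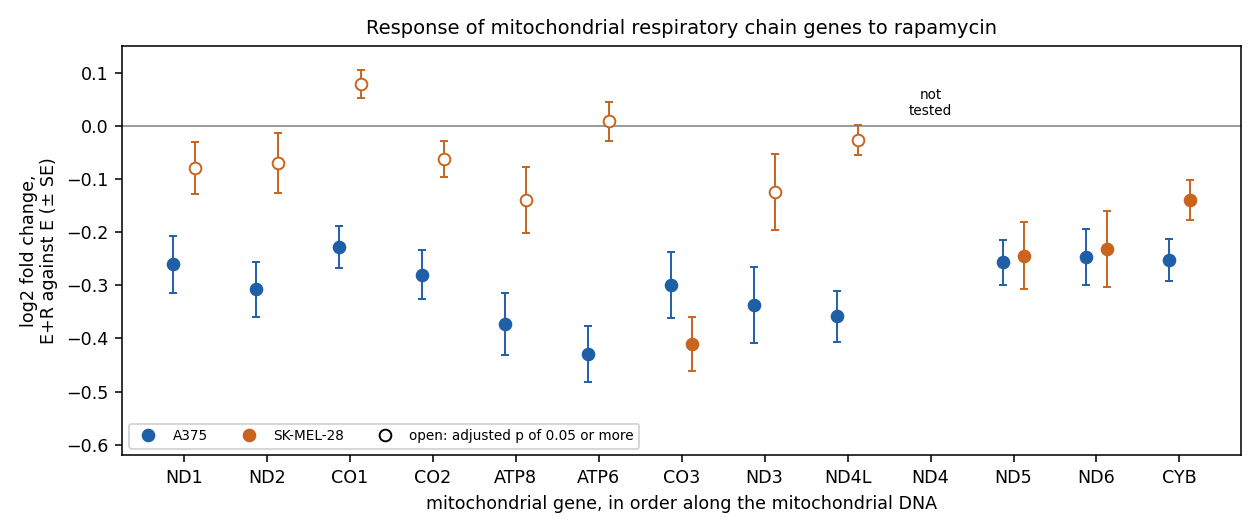
Log2 fold change (± SE) with rapamycin of each mitochondrial member in A375 and SK-MEL-28, in order along the mitochondrial DNA. All 12 tested genes lie between -0.43 and -0.23 in A375, whereas in SK-MEL-28 they run from -0.41 for MT-CO3 to 0.08 for MT-CO1.

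The difference of the response between the lines was tested with an interaction term over all 12 libraries. Of the 12 mitochondrial members, 4 passed, all with a less negative response in SK-MEL-28, where 5.62% of all genes tested passed, 2.66% in that direction and 2.97% in the other. MT-CO1 differed by 0.31 ± 0.05 on the log2 scale (edgeR adjusted p = 0.00113) and MT-ND4L by 0.34 ± 0.06 (edgeR adjusted p = 0.00338). MT-CO2 differed by 0.23 ± 0.06, and this call was lost when genes with 1 count anywhere were tested and in 9 of the 12 refits that left out 1 library. It held without A375 etoposide replicate 1, A375 etoposide + rapamycin replicate 1 or SK-MEL-28 etoposide replicate 1.

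MT-ATP6 had the largest difference, 0.45 ± 0.07, but this was 0.08 with its pseudogene counts added (edgeR adjusted p = 0.717). Summed over the locus the difference was 0.23 (edgeR adjusted p = 0.0388). For MT-ND5 and MT-ND6 the differences between the lines were 0.02 ± 0.08 and 0.02 ± 0.10. Their values in SK-MEL-28 rest in part on 1 library, and without SK-MEL-28 etoposide replicate 1 they were -0.15 and -0.12, beside -0.26 and -0.25 in A375. No member passed with a difference over 1.5-fold, which 1.62% of all genes did. The median difference was 0.22 for mitochondrial members, 0.04 for nuclear members and 0.02 over all genes tested. The nuclear value ran from -0.004 to 0.087 when 1 library was left out, so its sign was not fixed.

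Nuclear members moved in both directions, although the 4 of complex II were all below 0 in both lines. In A375 the nuclear members had a smaller median change than the mitochondrial ones. Their log2 fold changes there ran from -0.43 to 0.46, so single genes moved as far. In A375, 20 of the 60 passed the test, 16 lower and 4 higher, beside the 28.1% of all genes that passed, 13.8% lower and 14.3% higher. Their median log2 fold change was -0.13 (-0.178 to -0.081 when 1 library was left out) and 46 of the 60 were below 0. Non-overlapping groups were found for 18 lower and 5 higher members, against 21.9% and 20.7% of all genes. The count of 20 became 31 without A375 etoposide replicate 1, the library with the lowest nuclear share in its group, and 13 without A375 etoposide + rapamycin replicate 1.

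Complex II, the succinate dehydrogenase that also works in the citric acid cycle, had the highest percentage of its own nuclear subunits called in A375, though complex I had more calls. Of its 4 subunits 3 fell, beside 13.8% of all genes. All 4 were lower in every rapamycin library than in any etoposide library, beside 21.9% of all genes. SDHC, a membrane anchor, was 182.2, 184.2 and 180.8 CPM with etoposide and 156.4, 152.5 and 150.7 CPM with rapamycin (log2 -0.25 ± 0.04, edgeR adjusted p = 0.00098). SDHD, the other anchor, was 52.3, 57.9 and 56.5 CPM with etoposide and 46.0, 45.8 and 48.5 CPM with rapamycin (log2 -0.24 ± 0.06). SDHB, the iron-sulfur subunit, had a log2 fold change of -0.20 ± 0.05. SDHA, the flavoprotein, was 91.8, 96.5 and 92.8 CPM with etoposide and 88.9, 87.5 and 81.9 CPM with rapamycin, and did not pass (log2 -0.12 ± 0.05, edgeR adjusted p = 0.101).

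The share of counts on complex II was lower with rapamycin in both lines without overlap, with means differing by -16.0% in A375 and -11.6% in SK-MEL-28. In SK-MEL-28 all 4 subunits were below 0, and 3 were lower without overlap, beside 18.1% of all genes. The order of the subunits there was different. SDHA fell from 101.2, 108.6 and 111.3 CPM with etoposide to 90.5, 85.8 and 84.8 CPM with rapamycin (log2 -0.30 ± 0.05, edgeR adjusted p = 0.00197), the only subunit of complex II to pass there. SDHC was 162.0, 150.7 and 163.8 CPM with etoposide and 154.1, 154.4 and 154.8 CPM with rapamycin, so the groups overlapped. The difference between the lines was 0.21 ± 0.06 for SDHC (edgeR adjusted p = 0.0489). That call was lost with RLE factors and with both other filters, and held in 1 of the 12 refits without 1 library, the one without SK-MEL-28 etoposide replicate 1. For SDHA it was -0.18 ± 0.07 and did not pass (edgeR adjusted p = 0.179). Rows named for SDHA pseudogenes held 12.8% of the counts of SDHA and those rows together.

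Complex I contributed 10 of the A375 calls, 3 higher and 7 lower. That was 27.8% of its 36 nuclear subunits, near the 28.1% of all genes. The NADH-oxidizing flavoprotein module did not move as a unit. NDUFV1, which binds FMN, rose from 116.8, 121.1 and 117.3 CPM to 135.5, 139.8 and 139.3 CPM (log2 0.23 ± 0.04, edgeR adjusted p = 0.00196). NDUFV2, its iron-sulfur partner, fell from 54.2, 65.7 and 59.3 CPM to 44.6, 44.2 and 44.2 CPM (log2 -0.43 ± 0.07, edgeR adjusted p = 0.00062). NDUFV3, the small accessory subunit of the module, had a log2 fold change of -0.26 ± 0.08.

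In SK-MEL-28 NDUFV1 was 137.2, 137.6 and 132.7 CPM with etoposide and 127.2, 132.7 and 128.8 CPM with rapamycin (log2 -0.07 ± 0.05, edgeR adjusted p = 0.352). The lowest etoposide and the highest rapamycin library both stood at 132.7 CPM. The responses of NDUFV1 differed between the lines by -0.29 ± 0.06 (edgeR adjusted p = 0.00801), the largest difference to pass among the nuclear members. NDUFV2 was 57.9, 61.2 and 60.6 CPM with etoposide and 54.5, 57.8 and 51.6 CPM with rapamycin there, and its difference between the lines, 0.30 ± 0.09, missed the threshold (edgeR adjusted p = 0.0713).

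NDUFS6, a zinc-containing subunit added late in complex I assembly (chr5:1801407-1816048), rose in both lines. In A375 it was 37.4, 43.5 and 43.2 CPM with etoposide and 53.3, 52.9 and 63.8 CPM with rapamycin (log2 0.46 ± 0.08, edgeR adjusted p = 0.00129). In SK-MEL-28 it was 39.1, 48.3 and 45.7 CPM with etoposide and 51.2, 63.6 and 57.4 CPM with rapamycin (log2 0.37 ± 0.09, edgeR adjusted p = 0.0108). The groups did not overlap in either line, and the SK-MEL-28 call was lost without etoposide + rapamycin replicate 2 (log2 0.29, edgeR adjusted p = 0.0544).

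NDUFS5, an accessory subunit on the intermembrane space side (chr1:39026318-39034636), fell in both lines. It was 81.1, 97.6 and 87.8 CPM with etoposide and 71.5, 77.0 and 69.4 CPM with rapamycin in A375 (log2 -0.29 ± 0.07). In SK-MEL-28 it was 114.2, 116.2 and 110.6 CPM with etoposide and 89.7, 102.2 and 87.2 CPM with rapamycin (log2 -0.29 ± 0.06, edgeR adjusted p = 0.00547). Both comparisons separated the groups completely.

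NDUFA2, NDUFB9 and NDUFV3 were the other nuclear members that passed in both lines, all lower. For NDUFA2, an accessory subunit of the hydrophilic arm, the log2 fold change was -0.27 ± 0.07 in A375 and was -0.17 ± 0.05 in SK-MEL-28. NDUFB9, from the distal membrane arm, was 103.2, 130.0 and 124.9 CPM with etoposide and 103.6, 101.8 and 103.5 CPM with rapamycin in A375, groups that overlap. The SK-MEL-28 calls of these 3 genes and the A375 calls of NDUFB9 and NDUFV3 were lost in 5 of 6 refits without 1 library, and held only without etoposide replicate 1 of the same line. These 5 calls were also lost when genes with 1 count in any library were tested, and the A375 call of NDUFB9 with RLE factors as well. The 5 nuclear genes called in both lines were 25.0% of the A375 calls and 71.4% of the SK-MEL-28 calls.

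Among nuclear subunits of complex IV, 5 of 11 fell in A375 (45.5%, beside 13.8% of all genes). None of the 11 passed in SK-MEL-28, beside 19.0% of all genes, and 3 had an unadjusted p under 0.05 there. COX7B, a small accessory subunit, was 47.8, 57.0 and 54.8 CPM with etoposide and 41.1, 39.7 and 45.3 CPM with rapamycin in A375 (log2 -0.33 ± 0.07, edgeR adjusted p = 0.00518). In SK-MEL-28 its groups overlapped (log2 -0.09 ± 0.07), and the difference between the lines did not pass (0.25 ± 0.11, edgeR adjusted p = 0.213). The most abundant subunit, COX4I1, had values of 290.7, 327.6 and 312.3 CPM with etoposide and 340.4, 337.3 and 337.1 CPM with rapamycin in A375, and did not pass (log2 0.13, edgeR adjusted p = 0.0651).

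Complex III passed for 2 of its 9 nuclear subunits in A375 (22.2%, under the 28.1% of all genes). UQCRC1, a core subunit, fell (log2 -0.17 ± 0.05), whereas CYC1, the cytochrome c1, rose (log2 0.13 ± 0.04, edgeR adjusted p = 0.0443). UQCRB, a ubiquinone-binding accessory subunit, passed in SK-MEL-28 alone, with 119.9, 115.2 and 117.3 CPM with etoposide and 133.4, 146.9 and 130.3 CPM with rapamycin (log2 0.22 ± 0.06, edgeR adjusted p = 0.0161). That call was lost without SK-MEL-28 etoposide replicate 2 or 3 or etoposide + rapamycin replicate 2 (log2 0.17 to 0.22), and the difference between the lines did not pass (0.24 ± 0.08, edgeR adjusted p = 0.102).

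In total, 7 of the 60 nuclear members passed in SK-MEL-28, 5 lower and 2 higher, beside the 19.0% of all genes. Their median was -0.06 (-0.12 to -0.034 when 1 library was left out). With library totals in place of TMM factors the count was 13, 11 lower and 2 higher. Non-overlapping groups were found for 12 lower and 5 higher members, where all genes gave 18.1% and 17.7%, or 35.9% in either direction.

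**Figure D3:**
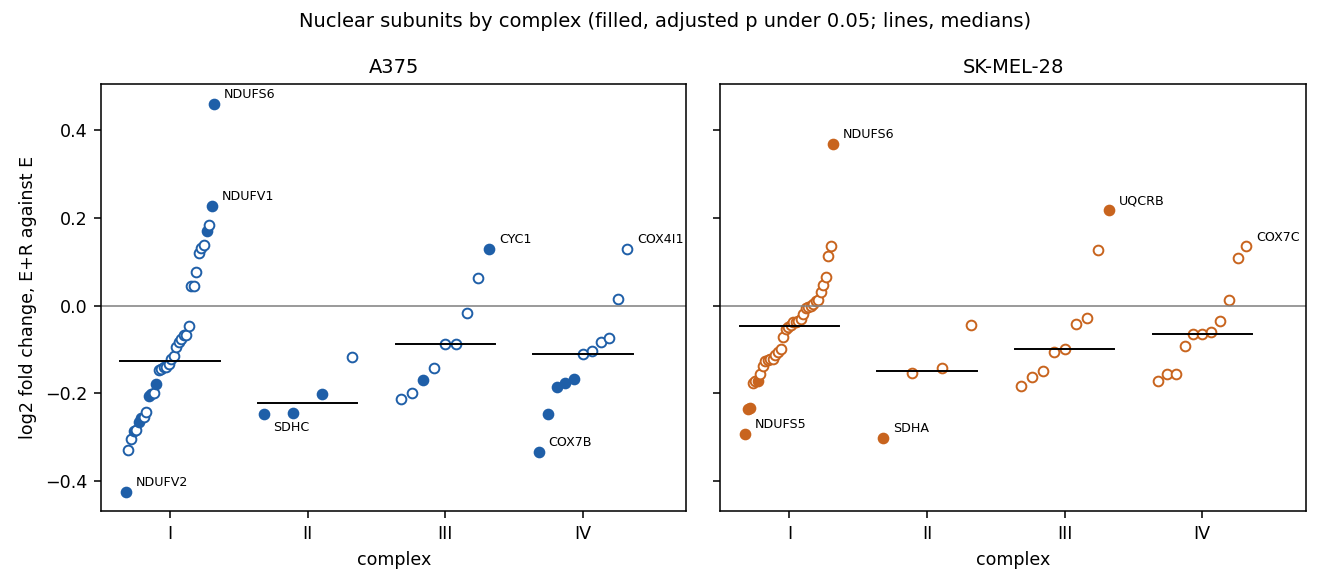
Log2 fold change with rapamycin of the 60 nuclear members by complex in A375 and SK-MEL-28. Filled points passed the test, lines are medians; complex II has the lowest median in A375 (-0.22), and NDUFS6 is the highest point in both lines.

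**Figure D4:**
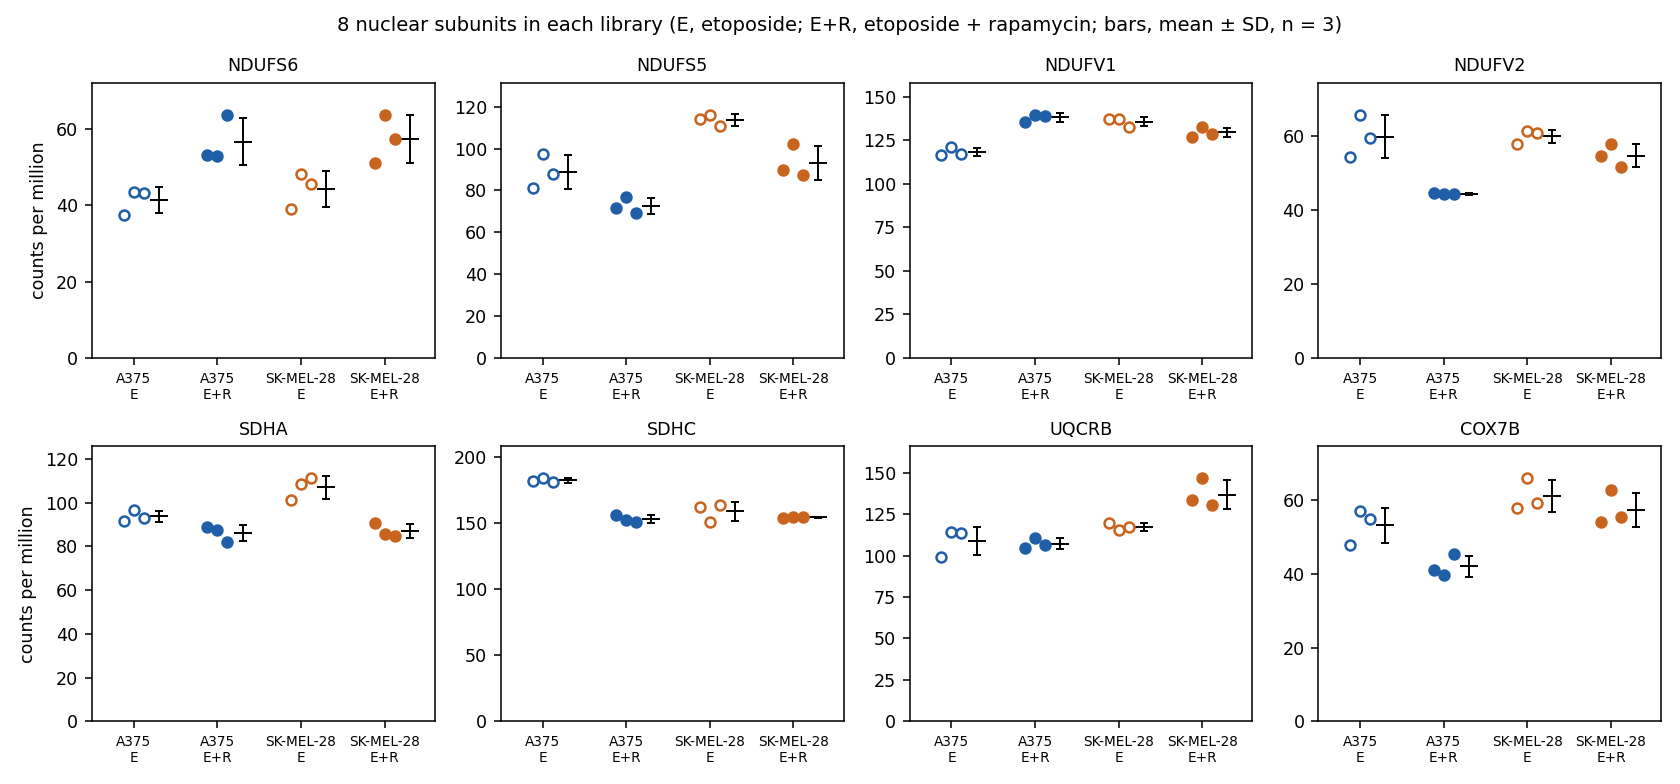
Levels in CPM of 8 nuclear subunits in each library, with mean ± SD (n = 3). NDUFV1 is higher and NDUFV2 lower with rapamycin in all A375 libraries, and SDHC separates the A375 groups but not the SK-MEL-28 groups.

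The lines also differed before rapamycin is considered. These comparisons share their etoposide libraries with the treatment comparisons. Under etoposide alone, 9 of the 12 mitochondrial members tested were higher in SK-MEL-28 and none was lower, beside 31.8% of all genes that passed, 15.1% higher and 16.7% lower. For 9 of them the groups did not overlap, as for 43.3% of all genes, 20.9% higher and 22.4% lower. Their median log2 difference was 0.19. MT-ND5, at 1729, 1727 and 1808 CPM in A375 and 2472, 2106 and 1990 CPM in SK-MEL-28, had the largest (log2 0.32 ± 0.06, edgeR adjusted p = 0.00044). MT-CO1 (log2 0.07), MT-ND2 (0.15) and MT-ATP8 (0.04) did not pass. Among the 9 calls, that of MT-ND3 was lost in 4 of the 12 refits without 1 library, MT-CO2 in 2 and MT-ND4L in 1. MT-ND3 was also lost with DESeq2 and when genes with 1 count in any library were tested. Without SK-MEL-28 etoposide replicate 1 the log2 difference of MT-ND5 was 0.224.

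Of the nuclear members, 14 were higher and 3 lower in SK-MEL-28, with a median of 0.11 (0.066 to 0.15 when 1 library was left out). NDUFB5, a membrane arm subunit of complex I, was 36.1, 40.1 and 40.9 CPM in A375 and 59.6, 65.1 and 64.5 CPM in SK-MEL-28 (log2 0.69 ± 0.07, edgeR adjusted p = 8.58e-07). It was the only member of either genome to pass with a difference over 1.5-fold, as 12.5% of all genes did. UQCRC2, a core subunit of complex III, was 79.4, 78.1 and 74.0 CPM in A375 and 111.2, 105.2 and 114.7 CPM in SK-MEL-28 (log2 0.52 ± 0.05). COX7C was 118.6, 144.3 and 131.8 CPM in A375 and 169.9, 188.2 and 180.8 CPM in SK-MEL-28 (log2 0.45 ± 0.07).

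The lower members included NDUFB8 and SDHC. NDUFB8, whose protein is widely used as a marker of assembled complex I, was 129.0, 158.4 and 152.6 CPM in A375 and 94.1, 114.4 and 98.5 CPM in SK-MEL-28 (log2 -0.52 ± 0.08, edgeR adjusted p = 0.00013). SDHC had a log2 difference of -0.20 ± 0.04. Under etoposide + rapamycin NDUFB8 stood at 137.5, 126.7 and 133.6 CPM in A375 and 86.2, 103.5 and 96.2 CPM in SK-MEL-28, in the same order.

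**Figure D5:**
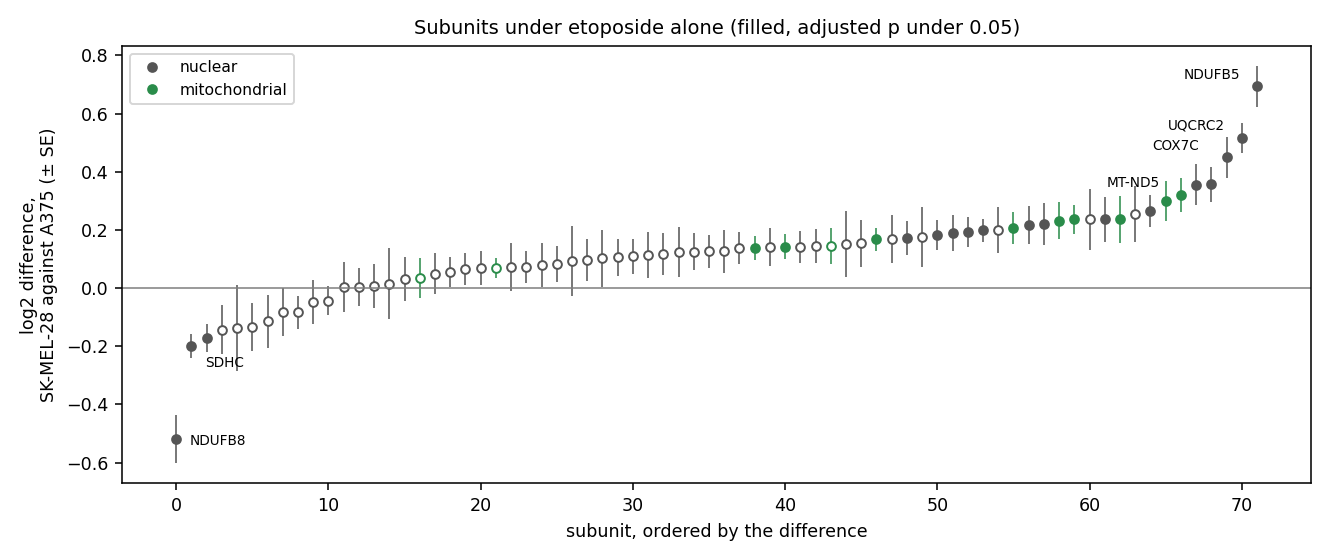
Log2 difference (± SE) between SK-MEL-28 and A375 under etoposide for the 72 members tested, ordered by size, with mitochondrial members in green and filled points past the test. The mitochondrial points all lie above 0 (0.04 to 0.32), and NDUFB5 (0.69) and NDUFB8 (-0.52) are the extremes.

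Genes that build or feed the chain were taken from fixed lists, whose counts stand beside 28.1% of all genes called in A375 (13.8% lower, 14.3% higher) and 19.0% in SK-MEL-28 (10.1% lower, 8.83% higher). Of 18 nuclear ATP synthase genes tested, 6 were lower and 2 higher in A375, with a median log2 fold change of -0.18. SK-MEL-28 had 6 lower and 1 higher, with a median of -0.10. ATP5C1, the gamma subunit of the rotor, was lower in both lines (log2 -0.34 and -0.23). ATP5G2, which encodes the c-ring protein, was higher in both (log2 0.34 and 0.38), whereas ATP5G1, a second gene for the same mature protein, was lower in both (-0.21 and -0.36).

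Of 48 assembly factors, 11 were lower and 3 higher in A375, and 1 was lower and 5 were higher in SK-MEL-28. The shares called, 29.2% and 12.5%, were near the 28.1% of all genes in A375 and under the 19.0% in SK-MEL-28. Their medians were -0.08 and 0.03. TIMMDC1, which helps to assemble the complex I membrane arm, was the only one to pass the test of the difference between the lines (0.30, edgeR adjusted p = 0.0201). UQCC3, a complex III assembly factor, was higher with rapamycin in both lines (log2 0.44 and 0.67).

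Of 18 genes for processing and stability of mitochondrial RNA, 7 were lower and 1 higher in A375 (44.4% called, beside 28.1% of all genes), and 3 were lower in SK-MEL-28 (16.7%, beside 19.0%). LRPPRC, which stabilizes mitochondrial mRNA, fell in A375 (log2 -0.19, edgeR adjusted p = 0.0158) and did not pass in SK-MEL-28 (-0.12, edgeR adjusted p = 0.171), and the lines did not differ past the threshold (edgeR adjusted p = 0.65). REXO2, a mitochondrial oligoribonuclease, was lower in both lines (log2 -0.38 and -0.17). Of 16 genes for transcription and replication of mitochondrial DNA, 6 were called in A375 (37.5%), 4 of them higher, and 1 rose in SK-MEL-28 (6.25%). TOP1MT, the mitochondrial topoisomerase I, rose in both lines (log2 0.58 and 0.40). POLRMT, the mitochondrial RNA polymerase, had log2 0.22 in A375 (edgeR adjusted p = 0.0357) while its value for SK-MEL-28 was -0.11 (edgeR adjusted p = 0.219). The difference between the lines for POLRMT, -0.33 ± 0.10, did not pass (edgeR adjusted p = 0.0743).

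Of 10 nuclear regulators of respiratory genes, 4 were higher and 1 lower in A375, beside 14.3% and 13.8% of all genes, and 1 was higher in SK-MEL-28, beside 8.83%. ESRRA and PPRC1, both activators of such genes, rose in A375 (log2 0.31 and 0.26), and the ETS factor subunit GABPA fell there (-0.28). Its partner GABPB1 rose in both lines (0.24 and 0.26).

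Among 7 oxygen-responsive modifiers of the chain, PDK1, the kinase that limits entry of pyruvate into the citric acid cycle, had the largest change. It was 22.3, 22.9 and 24.4 CPM with etoposide and 11.8, 13.3 and 10.1 CPM with rapamycin in A375 (log2 -0.98 ± 0.11), and 33.1, 30.7 and 33.1 CPM with etoposide and 11.8, 11.8 and 10.6 CPM with rapamycin in SK-MEL-28 (log2 -1.51 ± 0.09). The difference between the lines passed the test (-0.52 ± 0.13, edgeR adjusted p = 0.0316). C15orf48, which encodes a paralogue of NDUFA4, was 26.4, 32.1 and 24.5 CPM with etoposide and 45.9, 44.2 and 46.8 CPM with rapamycin in A375 (log2 0.73 ± 0.09). In SK-MEL-28 it was 1.89, 2.38 and 3.00 CPM with etoposide and 3.52, 4.18 and 5.33 CPM with rapamycin (log2 0.83 ± 0.22). NDUFA4 itself fell in A375 (log2 -0.17 ± 0.05, edgeR adjusted p = 0.0185).

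Promoters of the nuclear members were compared with all promoters for words of the factors named above. RefSeq windows of 300 bases (GRCh38.p14) matched 50 of the 60 nuclear members, and 3 words were searched on both strands: CGCATGCG for the core of the NRF1 motif, CCGGAAGT for ETS factors and AAGATGGC for YY1. At least 1 word was present in 40% of the member promoters and in 9.01% of 27305 promoters. By word, the shares were 12%, 16% and 16% of the members against 2.19%, 4.44% and 3.03% of all promoters. Of the members that fell in A375, 5 of the 10 with a window held a word, against 15 of the other 40. A match of letters is a description and not a bound site.

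The windows of NDUFS6, which rose in both lines, and of the complex II genes SDHB and SDHD, which fell in A375, each held a word. They are shown with the words in capitals, on the strand of the gene, at chr5:1801157-1801456 (plus strand) for NDUFS6, chr1:17053983-17054282 (minus strand) for SDHB and chr11:112086623-112086922 (plus strand) for SDHD.
NDUFS6: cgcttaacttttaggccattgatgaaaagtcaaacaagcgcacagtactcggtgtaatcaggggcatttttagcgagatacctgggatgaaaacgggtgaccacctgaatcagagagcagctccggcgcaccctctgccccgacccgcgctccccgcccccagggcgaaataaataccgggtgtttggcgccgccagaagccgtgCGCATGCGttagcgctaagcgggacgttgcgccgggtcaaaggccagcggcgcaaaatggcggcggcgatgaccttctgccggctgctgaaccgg
SDHB: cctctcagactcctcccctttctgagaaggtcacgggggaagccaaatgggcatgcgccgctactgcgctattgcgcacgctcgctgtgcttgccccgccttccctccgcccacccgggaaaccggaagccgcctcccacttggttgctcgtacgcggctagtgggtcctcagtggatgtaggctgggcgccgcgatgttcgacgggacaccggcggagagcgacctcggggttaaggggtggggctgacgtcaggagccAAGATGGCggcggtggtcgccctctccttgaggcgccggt
SDHD: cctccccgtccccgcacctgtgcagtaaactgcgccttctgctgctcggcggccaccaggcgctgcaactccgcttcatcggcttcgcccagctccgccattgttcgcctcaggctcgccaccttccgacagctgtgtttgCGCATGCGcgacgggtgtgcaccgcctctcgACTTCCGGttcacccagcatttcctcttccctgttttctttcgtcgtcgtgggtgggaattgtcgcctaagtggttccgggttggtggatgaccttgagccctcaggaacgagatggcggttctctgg
The NDUFS6 window holds the NRF1 core and the SDHB window the YY1 word. In the SDHD window the NRF1 core, which reads the same on both strands, is followed by the ETS word on the opposite strand. In A375 the log2 fold changes of these 3 genes were 0.46, -0.20 and -0.24.

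Levels of mitochondrial rRNA, of RNA without a poly(A) tail and of cell type markers were set beside these results. RNA integrity itself was not examined. Mitochondrial rRNA took 0.192% to 0.222% of counts in the A375 etoposide libraries and 0.175% to 0.187% with rapamycin, without overlap, and 0.238% to 0.262% and 0.211% to 0.238% in SK-MEL-28. RNA without a poly(A) tail (6 genes) took at most 0.0231% of the counts of any library, and its groups did not overlap in SK-MEL-28 (0.00593% to 0.0154% with etoposide, 0.00540% to 0.00574% with rapamycin). Markers of cell types were summed in each library. The 9 melanocyte lineage markers summed to 710 to 837 CPM with etoposide and 589 to 855 CPM with rapamycin in A375, and to 512 to 636 and 382 to 605 CPM in SK-MEL-28, ranges that overlap. Of the 8 tested, 4 were lower in A375 (50%, median log2 -0.42) and 1 in SK-MEL-28 (12.5%, median -0.20). Of all genes, 13.8% and 10.1% were lower in these lines.

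Other markers separated the treatment groups at low levels. The 5 endothelial markers summed to 84.7 to 96.0 CPM with etoposide and 62.1 to 64.9 CPM with rapamycin in A375, without overlap, and to 65.8 to 70.0 and 68.3 to 73.5 CPM in SK-MEL-28, where the ranges overlap. The 6 fibroblast markers went without overlap from 17.8 to 22.6 CPM to 13.5 to 13.8 CPM in A375 and from 31.9 to 39.4 CPM to 21.4 to 24.9 CPM in SK-MEL-28, where COL1A2 was listed at 0 with rapamycin. The 5 immune markers summed to at most 2.68 CPM in any library, and their groups did not overlap in SK-MEL-28 (1.96 to 2.68 and 0.821 to 1.43 CPM). The 6 keratinocyte markers summed to 48.1 to 72.9 CPM, with overlap in both lines. The part of these measures in the changes of the respiratory chain genes was not tested.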

How the data were processed

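Per the labels and the study's methods, poly(A)-enriched RNA was sequenced, and the authors aligned reads to GRCh38 with HISAT2 and assembled and quantified transcripts with StringTie, with DESeq2 for their own tests. The authors deposited 1 table of counts per gene over the 12 libraries, not normalized. How coverage became counts and whether strand was used are not given in the sources used here. Rows without a gene name (5 of 58312, at most 0.00529% of a library) were left out.

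Counts were tested with edgeR 4.0.16 in R 4.3.3 (filterByExpr with a minimum count of 10, TMM factors, glmQLFit and glmQLFTest). Each line was fitted alone for rapamycin, and all 12 libraries together for the interaction and the difference between lines. A gene was called at a Benjamini-Hochberg adjusted p under 0.05 over all genes tested. The script was tested on simulated data. Lengths are those of GENCODE canonical transcripts on the same build. Shares carry no test.

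The members and the gene lists were chosen with earlier results of these data known. Named members are the 13 mitochondrial genes, nuclear genes called in both lines, the 3 with the largest changes in each direction per comparison, those called for the interaction, and the highest and lowest per kilobase in each complex; from other lists, at most 3 called genes per list and comparison. SDHB, SDHD, UQCRC1, CYC1, NDUFA4, LRPPRC, POLRMT, GABPA and other list genes were named after their values were seen. The values of 1 member that this rule names are not reported here. Alternatives were RLE factors, library totals, TMM without the mitochondrial chromosome, DESeq2 1.42.0, other filters, 1 fit of all libraries, a replicate block, halved counts, pseudogene counts added, and each library left out. The last alternatives, summing the names of 1 mitochondrial locus with or without pseudogenes, were chosen after seeing the data.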

Additional observations from a re-analysis of the deposited data

Results flagged for a closer look

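By the interaction term, 6 members responded to rapamycin differently in SK-MEL-28 and A375. The log2 difference of the response, SK-MEL-28 minus A375, was -0.291 for NDUFV1 and 0.211 for SDHC among nuclear members. For mitochondrial members it was 0.226 for MT-CO2, 0.313 for MT-CO1, 0.339 for MT-ND4L and 0.446 for MT-ATP6. In A375 NDUFV1 rose and the other 5 fell, and in SK-MEL-28 none of the 6 passed. The MT-ND4L row also carries MT-ND4. The value of MT-ATP6 rests on how reads were shared with a pseudogene row. Groups of 3 libraries were not searched for single outlying values.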

How the results depend on the processing

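The count of 12 mitochondrial calls in A375 held under every alternative (10 of 10 where names of 1 locus were summed) other than the added limit of a fold change over 1.5, which left 0 members of either genome in the comparisons of treatment and of its difference between lines, and 1 nuclear and 0 mitochondrial members between the lines. Testing genes with 1 count in any library left 13 nuclear calls in A375, 4 nuclear and 1 mitochondrial in SK-MEL-28 and 1 nuclear for the difference of the response. Library totals gave 13 nuclear calls in SK-MEL-28. TMM without the mitochondrial chromosome gave 5 mitochondrial calls there, 1 higher and 4 lower. The single nuclear call for the difference of the response left by RLE factors, by 10 counts in every library and by the replicate block was 1 in each case.

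Leaving out 1 library gave 13 to 31 nuclear calls in A375, 3 to 11 nuclear and 1 to 4 mitochondrial in SK-MEL-28, and 1 to 3 nuclear and 3 to 8 mitochondrial for the difference of the response, with 8 reached without SK-MEL-28 etoposide replicate 1. No pairing by replicate number was seen. Same-numbered deviations correlated at -0.0298 to 0.0209, and in neither line did every library correlate best with its own number. Correlations over all genes cannot settle whether libraries of the same number shared a culture or batch. With the replicate block, the counts in A375 and SK-MEL-28 stayed within 1.5 times. Between the lines, 9 nuclear and 4 mitochondrial members passed with it. That fit compared the lines at their fitted levels of replicate 1, so it gives no difference adjusted for replicate.

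With pseudogene counts added, the mean mitochondrial share was 4.333% and 3.405% in A375 with etoposide and with rapamycin, and 4.795% and 4.513% in SK-MEL-28. The sign of MT-ATP6 in SK-MEL-28 reversed to -0.147 with the names of its locus summed and to -0.146 with pseudogenes as well, both negative with edgeR adjusted p of 0.0117 and 0.00964. The causes were not tested. The tested members held at least 360 counts in every library, and 3 libraries per group limit the smallest change that could pass.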
